A study of Mus musculus with 16 samples.

Results

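Dietary protein was the intended difference between the groups compared here, which were aortas of mice with chronic kidney disease on a high-phosphate diet. The 5/6 Nx-HPi-Lp mice (below, HPi-Lp mice) ate a diet with 2% phosphorus and 2.5% protein, and the 5/6 Nx-HPi-Hp mice (HPi-Hp mice) ate one with 2% phosphorus and 18% protein, both for 30 days. The comparison used 8 of the 16 libraries of the series, 4 per group and 1 per mouse. The remaining 8 came from 4 Sham-HPi-Lp mice, which kept their kidneys and ate the 2% phosphorus and 2.5% protein diet, and from 4 5/6 Nx-LPi-Lp mice, on 0.3% phosphorus and 2.5% protein; their levels stand beside those of the compared pair without a test. All were male C57BL/6J mice that entered the study at 12 weeks of age, and the 5/6 nephrectomy was done in 2 operations before the diets began. The low-protein diet also held more corn starch than the 18% protein diet and differed slightly in sucrose, oil and the salts that supplied calcium and phosphate, so the diets were not alike in everything but protein. Among the groups, the paper found strong aortic calcification in HPi-Lp mice alone. It also describes more serum phosphate, less serum calcium and a larger loss of weight in them than in HPi-Hp mice. The compared groups thus differed in calcification as well as in diet. The part of calcification, serum minerals and weight loss in the differences below was not tested. The whole aorta was ground for RNA. In such bulk samples fewer cells of a type and less RNA per cell cannot be told apart.

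Library totals were 15013203 to 57276915 counts in HPi-Lp mice and 13659525 to 18186113 in HPi-Hp mice, and mitochondrially encoded genes took 19.3% to 27.1% and 9.50% to 29.0% of them. HPi-Lp mice 2 and 3 were sequenced far deeper, to 57276915 and 46499243 counts, than HPi-Lp mice 1 and 4, at 15665005 and 15013203. HPi-Hp mouse 4 stood apart, with the lowest mitochondrial share of the 8 and the highest summed level of 9 smooth muscle markers. Its smooth muscle sum, 23948 CPM, lay within the Sham-HPi-Lp range of 22439 to 26708 CPM. So did its adipocyte marker sum, 2553 CPM, with a Sham-HPi-Lp range of 1276 to 2728 CPM. HPi-Lp mice 1 and 4 were rich in markers of sympathetic neurons, whose summed level was 85.5 to 2089 CPM in HPi-Lp and 118 to 417 CPM in HPi-Hp mice. Defining aortic markers were present: smooth muscle markers summed to 2304 to 5216 CPM in HPi-Lp and 6763 to 23948 CPM in HPi-Hp mice, and endothelial markers to 1099 to 1353 and 933 to 1296 CPM.

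Cells that run short of an amino acid activate the kinase GCN2, which slows translation and raises the transcription factor ATF4. ATF4 in turn drives genes for amino acid synthesis and uptake, and the same shortage lowers the activity of mTORC1, the kinase complex that couples nutrients to ribosome production. Dietary protein deficiency is also known to raise circulating glucocorticoid, which acts on vascular cells through its own receptor, and meal composition and timing can shift the peripheral circadian clock. The account below follows these systems in turn, then lipid and energy metabolism, cell division, lysosomes and complement, growth factors and vascular receptors.

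Over all genes, 16198 were tested, 811 (5.01%) were upregulated and 504 (3.11%) were downregulated in HPi-Lp mice. A gene was called when edgeR's quasi-likelihood test gave a Benjamini-Hochberg adjusted p of at most 0.05 and the absolute log2 fold change was at least 1. The groups of mice did not overlap in 3305 genes (20.4%), called or not. By adjusted p alone, 2113 of the 16198 genes passed 0.05. Counts at an unadjusted p under 0.05 are given for some lists below. The share of all genes at that threshold was not computed and is at least as large as by adjusted p. The median log2 fold change of all genes was 0.01. Without HPi-Lp mouse 4 the calls were 422 and 216, without HPi-Lp mouse 2 they were 615 and 291, without HPi-Hp mouse 2 they were 418 and 264, and without HPi-Hp mouse 3 they were 527 and 447. Without HPi-Hp mouse 4, which stood apart, they were 802 and 535, and without the neuron-rich HPi-Lp mice 1 and 4 they were 693 and 340. Levels below are CPM, the counts of a gene relative to the scaled library total, listed for mice 1 to 4 in order, and a fold change is given as log2 ± standard error.

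Among genes with the smallest p, Shisa3 (chr5:67607882-67623552 on mm10), which encodes an inhibitor of Wnt and FGF receptor maturation, was at 65.9, 67.03, 77.8 and 84.9 CPM in HPi-Lp and 10.97, 7.35, 8.17 and 12.7 CPM in HPi-Hp mice. Every HPi-Lp mouse lay more than 5 times above the highest HPi-Hp mouse, and the log2 fold change was 2.92 ± 0.20 (adjusted p = 0.000339). Cxcl13 (chr5:95956951-95961068), the chemokine that draws B cells into lymphoid follicles, was at 65.2, 53.5, 43.2 and 56.1 CPM against 1.61, 2.69, 0.675 and 1.64 CPM (5.05 ± 0.35, adjusted p = 0.000339). Thbs1 (chr2:118111876-118127133), for the matricellular protein thrombospondin 1, was at 153, 251, 314 and 227 CPM against 31.4, 26.8, 23.997 and 40.8 CPM (2.95 ± 0.25, adjusted p = 0.00105). In none of these did the groups overlap, and the means of Sham-HPi-Lp and 5/6 Nx-LPi-Lp mice lay below every HPi-Lp mouse, at 16.4 ± 7.18 and 6.96 ± 1.86 CPM for Shisa3, 0.894 ± 0.706 and 2.18 ± 0.774 CPM for Cxcl13 and 32.2 ± 13.7 and 38.7 ± 15.8 CPM for Thbs1 (SD, n = 4).

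Of genes with a mean of at least 10 CPM in 1 group and no overlap, the largest rises were those of Saa3, Spp1, Wfdc21 and Igha. Spp1 (chr5:104435118-104441050), for osteopontin, a phosphoprotein that binds mineral, was at 246, 1249, 899 and 543 CPM in HPi-Lp and 3.66, 4.41, 0.8999 and 1.69 CPM in HPi-Hp mice (8.11 ± 0.71, adjusted p = 0.00105). Saa3 (chr7:46711998-46715700), an acute-phase serum amyloid A, was at 4.16, 231, 159 and 39.3 CPM against 0.4303, 0, 0 and 0.383 CPM (8.84 ± 1.35, adjusted p = 0.00542). Its lowest HPi-Lp mouse was mouse 1, and no HPi-Hp mouse reached 0.5 CPM. Wfdc21 (chr11:83746940-83752642), a small secreted protein of the WAP family, was at 3.28, 21.03, 14.7 and 30.1 CPM against 0.376, 0, 0.375 and 0 CPM (6.47 ± 0.94, adjusted p = 0.00494). Igha (chr12:113254830-113260236), the constant region of immunoglobulin A heavy chain, was at 254, 12.9, 9.12 and 50.3 CPM against 1.61, 2.53, 0.525 and 0.601 CPM (5.98 ± 1.18, adjusted p = 0.0135), and HPi-Lp mouse 1 alone held over 5 times as much as the next mouse. Of 6 B and plasma cell markers edgeR called none (2 higher at an unadjusted p under 0.05; DESeq2 called 1 up, limma none), and they summed to 8.15 to 80.4 CPM in HPi-Lp and 13.2 to 44.3 CPM in HPi-Hp mice; their part in the Igha level was not tested.

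Of the genes that fell, Tcap (chr11:98383811-98384953), which encodes telethonin, the titin cap of striated muscle, was at 45.7, 31.7, 15.9 and 28.1 CPM in HPi-Lp and 737, 554, 378 and 306 CPM in HPi-Hp mice (-4.02 ± 0.40, adjusted p = 0.00177). Of 5 heart muscle markers tested only Myl7 was called. All 7 heart muscle markers, tested or not, summed to 34.96 to 151 CPM in HPi-Lp and 44.1 to 960.2 CPM in HPi-Hp mice. Their part in the Tcap level was not tested. The noncoding 5430431A17Rik (chr7:44484517-44485413) was at 6.11, 10.2, 5.45 and 1.94 CPM against 34.2, 91.8, 81.9 and 28.2 CPM (-3.29 ± 0.54, adjusted p = 0.0066), without overlap. Optc (chr1:133897199-133907999), for the small leucine-rich proteoglycan opticin, was at 7.56, 2.04, 6.602 and 3.61 CPM against 45.2, 42.5, 17.4 and 86.6 CPM (-3.27 ± 0.53, adjusted p = 0.00617). Ccdc42 (chr11:68587021-68597966), a coiled-coil protein known from sperm, was at 2.08, 2.02, 3.64 and 0.516 CPM against 14.8, 14.05, 6.45 and 41.8 CPM (-3.17 ± 0.64, adjusted p = 0.0145). HPi-Hp mouse 4 was the highest and HPi-Hp mouse 3 the lowest of its group for both Optc and Ccdc42.

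Smaller spreads were seen for 3 more downregulated genes with the smallest p. Slc25a23 (chr17:57043711-57059863), a calcium-regulated carrier of ATP and phosphate in the inner mitochondrial membrane, was at 49.4, 47.5, 62.8 and 57.3 CPM in HPi-Lp and 154, 127, 135 and 156 CPM in HPi-Hp mice (-1.39 ± 0.15, adjusted p = 0.00203). Gfra4 (chr2:131039632-131043088), the coreceptor of persephin, was at 10.5, 8.45, 12.2 and 8.45 CPM against 28.3, 33.97, 29.4 and 36.7 CPM (-1.69 ± 0.18, adjusted p = 0.00203). Gm48529 (chr9:45930112-45933738) was at 8.51, 6.42, 9.56 and 9.22 CPM against 31.8, 31.3, 36.1 and 31.7 CPM (-1.95 ± 0.17, adjusted p = 0.00105). This antisense transcript lies inside the smooth muscle gene Tagln, and because the strand setting of the counting is not given, its reads cannot be told apart from those of Tagln.

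Of the 29 upregulated genes named by the rules in the methods, the HPi-Lp mean was the highest of all 4 groups in 28, and of the 28 downregulated ones it was the lowest in 27. The HPi-Hp mean was at the opposite extreme in 8 and 14 of them. These genes had been chosen for the difference between HPi-Lp and HPi-Hp mice, so the order is a description. The exceptions were Scd2 and Rps6kb2. In these 2 genes only the HPi-Hp mean was an extreme of the 4 groups.

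In 16 of the 37 pathway lists edgeR called members in 1 direction only. In these lists 0 to 11 members moved the other way at an unadjusted p under 0.05, most often in fatty acid oxidation (11 lower). DESeq2 called members the other way in 4 of the 16, with 3 lower in fatty acid oxidation, 2 lower in glycolysis and 1 higher among clock and among interferon-stimulated genes, and limma called none. Some edgeR shares were near or below those of all genes. These were fatty acid oxidation (4.65% up), glycolysis (3.13% up), FoxO and atrophy genes (4.35% down), the TCA cycle (3.57% down) and interferon-stimulated genes (2.13% down).

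**Figure D1:**
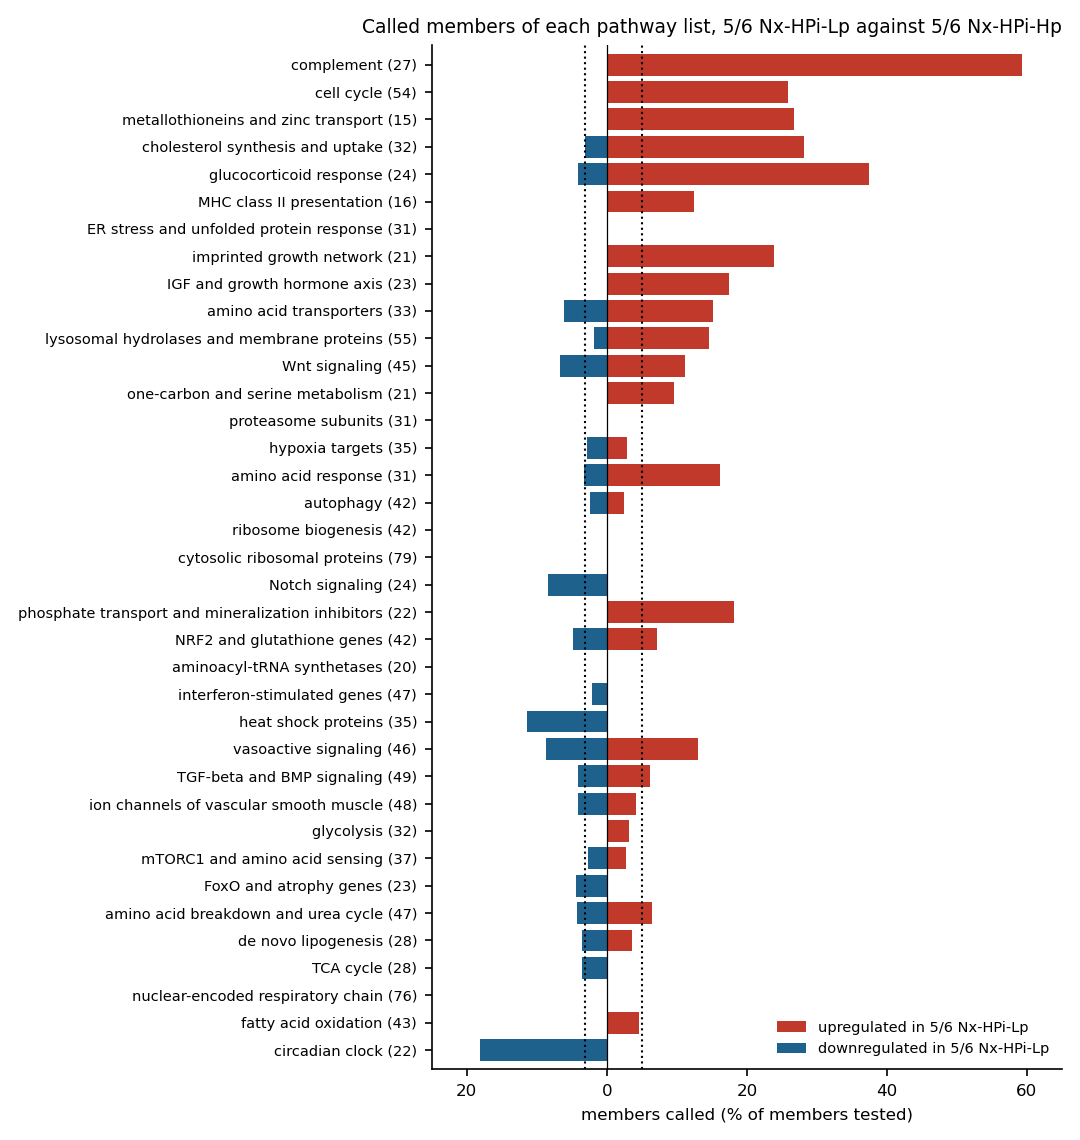
Horizontal bars give the percentage of tested members of each pathway list that were upregulated (red, right) or downregulated (blue, left) in 5/6 Nx-HPi-Lp against 5/6 Nx-HPi-Hp mice, with the number tested in parentheses and lists ordered by median log2 fold change. Dotted lines mark the shares over all genes, 5.01% up and 3.11% down; complement (16 of 27), glucocorticoid response (9 of 24) and cholesterol (9 of 32) reached the highest upregulated shares, and the circadian clock (4 of 22) the highest downregulated share.

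Genes of the amino acid response were called in both directions. Of 31 members tested, 5 were upregulated and 1 was downregulated (16.1% and 3.23%, beside 5.01% and 3.11% of all genes). The median log2 fold change was 0.11. Ddit4, which encodes the mTORC1 inhibitor REDD1 and answers to both ATF4 and the glucocorticoid receptor, was at 62.5, 80.1, 60.3 and 101 CPM in HPi-Lp and 19.5, 20.7, 38.5 and 26.03 CPM in HPi-Hp mice (1.54 ± 0.26, adjusted p = 0.00722). Psat1, the transaminase of serine synthesis, was at 32.5, 20.02, 16.1 and 20.1 CPM against 6.99, 11.6, 9.37 and 7.33 CPM (1.33 ± 0.27, adjusted p = 0.0149), and its call ended with the 2 neuron-rich HPi-Lp mice left out (1.03, adjusted p = 0.0684). Slc7a5, the light chain of the large neutral amino acid transporter, was at 18.6, 16.5, 13.7 and 23.6 CPM against 8.93, 7.76, 5.999 and 13.2 CPM (1.02 ± 0.27, adjusted p = 0.0347). Its partner Slc3a2, the shared heavy chain, was at 144, 133, 131 and 136 CPM against 83.8, 75.1, 80.3 and 76.3 CPM, a difference of 0.79 ± 0.13 that passed the p threshold (adjusted p = 0.00617) but not the fold threshold. No HPi-Hp mouse reached the lowest HPi-Lp mouse in any of these 4 genes.

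Slc7a11, the cystine importer, was at 0.946, 6.98, 4.02 and 1.23 CPM in HPi-Lp and 0.323, 0, 0.29997 and 0.328 CPM in HPi-Hp mice (3.75 ± 0.89, adjusted p = 0.0254). It was high in HPi-Lp mice 2 and 3 and near the detection limit in HPi-Hp mice, where all 4 libraries together held 16 counts. Mthfd2, a mitochondrial one-carbon enzyme, was at 23.9, 20.9, 22.8 and 10.9 CPM against 5.49, 4.25, 5.77 and 14.5 CPM (1.39 ± 0.40, adjusted p = 0.0455), with HPi-Lp mouse 4 below HPi-Hp mouse 4. Single libraries decided some of these calls: Slc7a11 was no longer called without HPi-Lp mouse 2 or 3 or HPi-Hp mouse 1, 2 or 3 (adjusted p up to 0.0661), Mthfd2 without HPi-Lp mouse 1, 2, 3 or 4 or HPi-Hp mouse 1, 2 or 3 (up to 0.124) and Slc7a5 without HPi-Lp mouse 1, 2 or 4 or HPi-Hp mouse 1, 2 or 3 (up to 0.109). With 1 library left out, 2 to 5 members of the list were upregulated, and only without HPi-Hp mouse 4 did that number stay at 5.

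The member that fell was Ddit3, for the stress factor CHOP, at 51.8, 31.5, 45.7 and 23.7 CPM in HPi-Lp and 74.6, 111, 96.7 and 53.9 CPM in HPi-Hp mice (-1.14 ± 0.30, adjusted p = 0.0342). The lowest HPi-Hp mouse barely exceeded the highest HPi-Lp mouse, and the call ended without HPi-Lp mouse 2, 3 or 4 or HPi-Hp mouse 1, 2 or 3 (adjusted p up to 0.0931). Classical markers of amino acid shortage did not pass the test. Asns, for asparagine synthetase, was at 33.9, 24.4, 24.8 and 28.4 CPM against 25.3, 8.98, 34.9 and 7.55 CPM (0.54 ± 0.44, adjusted p = 0.427), and HPi-Hp mice 1 and 3 lay within or above the HPi-Lp range. Trib3, the ATF4-induced pseudokinase, was at 14.1, 9.28, 7.04 and 9.998 CPM against 11.7, 4.41, 9.97 and 6.998 CPM (0.29 ± 0.33, adjusted p = 0.58). Chac1, which degrades glutathione, was at 1.32, 5.65, 3.86 and 3.68 CPM against 2.904, 1.71, 2.17 and 2.19 CPM (0.70 ± 0.45, adjusted p = 0.317). Atf4 itself was at 159.9, 198, 202 and 159 CPM against 135, 137, 129.7 and 188 CPM (0.29 ± 0.17, adjusted p = 0.274). In Sham-HPi-Lp mice, which ate the same diet with intact kidneys, Asns was at 3.01, 4.28, 5.77 and 2.33 CPM, below each of the 12 mice with 5/6 nephrectomy, whose lowest value was 7.55 CPM.

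**Figure D2:**
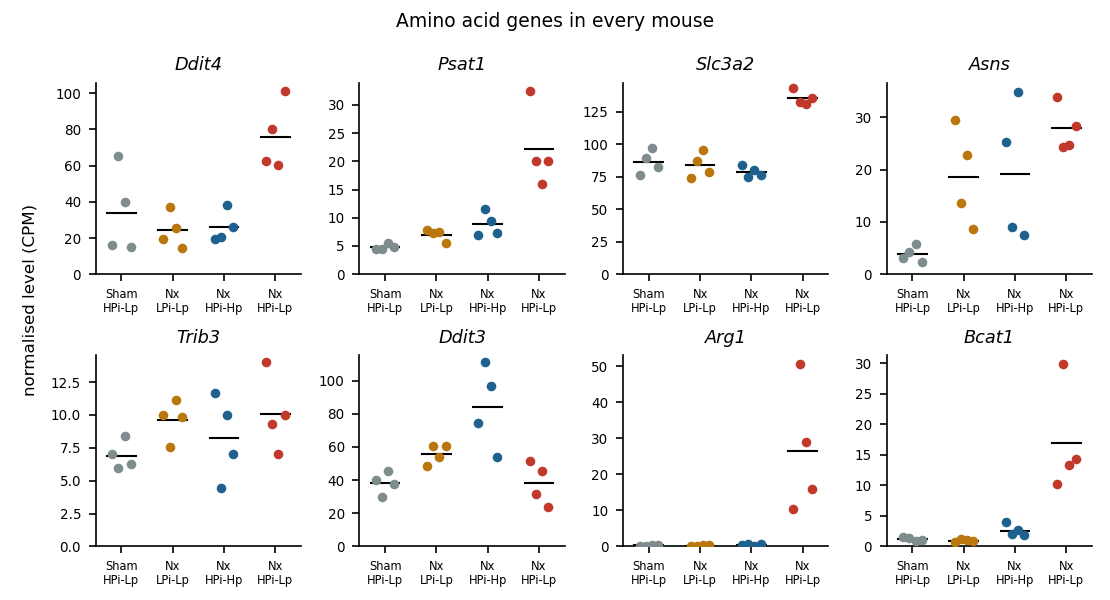
Each panel plots the CPM of 1 amino acid gene on a linear axis from 0, with 1 point per mouse and a bar at the mean of 4 mice in the groups Sham-HPi-Lp, 5/6 Nx-LPi-Lp, 5/6 Nx-HPi-Hp and, on the right, 5/6 Nx-HPi-Lp. HPi-Lp mice lie above all other mice for Psat1, Slc3a2, Arg1 and Bcat1, and overlap HPi-Hp mice for Asns and Trib3.

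ATF4 binds the CARE motif, TGATGNAA, as a partner of C/EBP factors. The motif was searched on both strands of the 250 bases before each RefSeq start (GRCm38.p6) and occurred in 3.45% of 32851 such windows and in 6 of the 27 windows found for list members. The windows of Slc7a11, Asns and Chac1 are shown because these genes are standard ATF4 readouts and behaved differently here. Matches are in capitals and the transcription start follows the last base. A match is a description of the sequence only.
Slc7a11 (chr3:50443614-50443863, minus strand): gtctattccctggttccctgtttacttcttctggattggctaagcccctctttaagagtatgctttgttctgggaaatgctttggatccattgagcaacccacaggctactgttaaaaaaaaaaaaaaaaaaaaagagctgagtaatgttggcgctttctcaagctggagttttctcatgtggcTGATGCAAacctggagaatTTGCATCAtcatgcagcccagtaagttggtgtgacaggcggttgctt
Asns (chr6:7693210-7693459, minus strand): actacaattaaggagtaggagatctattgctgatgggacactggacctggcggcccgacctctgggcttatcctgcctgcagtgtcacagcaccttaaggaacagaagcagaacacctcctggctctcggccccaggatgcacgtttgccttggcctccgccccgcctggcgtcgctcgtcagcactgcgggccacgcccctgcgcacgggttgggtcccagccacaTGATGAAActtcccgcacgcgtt
Chac1 (chr2:119350992-119351241, plus strand): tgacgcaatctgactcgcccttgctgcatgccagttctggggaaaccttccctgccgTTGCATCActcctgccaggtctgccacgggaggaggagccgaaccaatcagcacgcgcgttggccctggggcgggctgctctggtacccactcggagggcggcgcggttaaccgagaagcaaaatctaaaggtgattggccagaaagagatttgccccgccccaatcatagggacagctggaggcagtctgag
Slc7a11 holds 2 matches in opposite orientation, a number reached by 0.0396% of windows. It was called upregulated, though not without some single libraries, as given above. Asns and Chac1, which were not called, hold 1 match each. The other list members with a match were Nupr1, Pck2 and Atf3, also not called. No match was found for Ddit4, Psat1, Slc7a5 or Mthfd2, which were called upregulated. Windows were found for 27 of the 31 members tested, and sites outside the 250 bases were not searched. A missing match therefore does not show that a gene lacks the motif.

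Amino acid transporters were called in both directions, 5 up and 2 down of 33 (15.2% and 6.06%, beside 5.01% and 3.11% of all genes, median 0.33). Slc43a2, which exports neutral amino acids by facilitated diffusion, was at 27.3, 46.6, 30.96 and 30.5 CPM in HPi-Lp and 18.3, 12.1, 10.6 and 14.98 CPM in HPi-Hp mice (1.28 ± 0.23, adjusted p = 0.00893). Slc38a3, a sodium-coupled glutamine transporter, was at 0.946, 1.17, 0.972 and 2.32 CPM against 8.34, 8.41, 8.62 and 4.26 CPM (-2.47 ± 0.42, adjusted p = 0.00765). In both genes the groups did not overlap. Slc7a8 and Slc7a7 were the other upregulated members beside Slc7a5 and Slc7a11, and Slc6a9 was the other downregulated one. Slc7a8 was lost without HPi-Lp mouse 2 or 4 or HPi-Hp mouse 2, 3 or 4 (adjusted p up to 0.0897), Slc7a7 without HPi-Lp mouse 1, 2, 3 or 4 or HPi-Hp mouse 1, 2 or 3 (up to 0.126) and Slc6a9 without HPi-Lp mouse 4 (up to 0.0539). Without single libraries 1 to 4 members were upregulated, the fewest without HPi-Hp mouse 3, and without HPi-Hp mouse 4 the median was 0.17.

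In amino acid breakdown and the urea cycle, 3 of 47 members rose and 2 fell (6.38% and 4.26%, median -0.16). These shares lay near those of all genes, 5.01% and 3.11%. Arg1, the arginase of the urea cycle and of alternatively activated macrophages, was at 10.5, 50.5, 29.1 and 15.996 CPM in HPi-Lp and 0.538, 0.735, 0.225 and 0.601 CPM in HPi-Hp mice (5.65 ± 0.58, adjusted p = 0.00199). Bcat1, the cytosolic branched-chain transaminase, was at 10.2, 29.9, 13.4 and 14.4 CPM against 3.93, 2.04, 2.62 and 1.804 CPM (2.71 ± 0.40, adjusted p = 0.00497). HPi-Lp mouse 2 was the highest for both genes and also for the summed macrophage markers, 688 to 2313 CPM in HPi-Lp and 278 to 546 CPM in HPi-Hp mice; their part in these rises was not tested. Amt, the aminomethyltransferase of glycine cleavage, was at 14.9, 7.47, 9.85 and 7.998 CPM against 20.9, 32.1, 21.1 and 20.5 CPM (-1.23 ± 0.27, adjusted p = 0.019), a call that ended without HPi-Lp mouse 4 or HPi-Hp mouse 2 (adjusted p up to 0.0632). Got1 was the other member called upward, lost without HPi-Lp mouse 2, 3 or 4 or HPi-Hp mouse 2, 3 or 4 (adjusted p up to 0.0874), and Ddo the other called downward, lost without HPi-Lp mouse 1, 2 or 4 or HPi-Hp mouse 1, 2 or 3 (up to 0.108). One-carbon and serine metabolism had 2 of 21 members upregulated (9.52%), Psat1 and Mthfd2, and a median of 0.14. With 1 library left out, both were still called only without HPi-Hp mouse 4.

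The machinery of protein synthesis and breakdown had medians close to that of all genes. By edgeR none of 79 cytosolic ribosomal proteins (median 0.07), 42 ribosome biogenesis genes (0.10), 20 aminoacyl-tRNA synthetases (0.03) and 31 proteasome subunits (0.13) was called, nor by DESeq2 or limma on log2(FPKM + 1). At an unadjusted p under 0.05, 13 ribosomal proteins, 7 biogenesis genes, 4 synthetases and 9 proteasome subunits differed. Without the share of all genes at that threshold, these counts do not show an excess. All 4 synthetases and all 9 proteasome subunits were higher in HPi-Lp mice, among them Gars, the glycyl-tRNA synthetase, at 93.6, 105, 109 and 112 CPM against 72.8, 52.8, 71.9 and 68.5 CPM (0.66 ± 0.15, adjusted p = 0.0195). In mTORC1 and amino acid sensing, 1 of 37 members rose, the inhibitor Ddit4 described above, and 1 fell (2.70% each, under the all-gene shares). That was Rps6kb2, for S6 kinase 2, at 102, 75.5, 90.003 and 71.7 CPM against 125, 259, 226 and 106 CPM (-1.08 ± 0.30, adjusted p = 0.0416), high in HPi-Hp mice 2 and 3 and not called without HPi-Lp mouse 2, 3 or 4 or HPi-Hp mouse 2 or 3 (adjusted p up to 0.119).

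Autophagy had 1 gene called in each direction of 42 (2.38% each, below the shares of all genes, median 0.11). Vmp1, a membrane protein needed to form autophagosomes, was at 122, 193, 186 and 174 CPM in HPi-Lp and 67.6, 66.6, 80.9 and 75.6 CPM in HPi-Hp mice (1.22 ± 0.18, adjusted p = 0.00488). Map1lc3a, an LC3 protein of the autophagosome membrane, was at 130.3, 109, 135 and 123 CPM against 265, 206, 277 and 256 CPM (-1.01 ± 0.16, adjusted p = 0.00552). Its fold change was just past the threshold and short of it without HPi-Lp mouse 2 or HPi-Hp mouse 1 or 3 (-1.11 to -0.95 over all fits without 1 library). Neither gene's groups overlapped. Of 23 FoxO and atrophy genes none rose and 1 fell (median -0.13), namely Foxo6, a forkhead factor, at 5.11, 1.92, 2.36 and 4.26 CPM against 16.2, 5.88, 14.7 and 9.896 CPM (-1.78 ± 0.42, adjusted p = 0.0247; not called without HPi-Lp mouse 2, 3 or 4 or HPi-Hp mouse 1 or 3, adjusted p up to 0.062).

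No gene of the unfolded protein response was called by edgeR. In that fit 28 of 31 were higher in HPi-Lp mice, the median was 0.43, 9 were higher and 1 lower at an unadjusted p under 0.05, and DESeq2 and limma also called none. Without HPi-Hp mouse 4, 3 members were upregulated. Xbp1, the factor spliced by IRE1, was at 167, 193, 223 and 209 CPM against 127, 87.6, 142 and 149 CPM (0.66 ± 0.19, adjusted p = 0.0475, under the fold threshold). Heat shock proteins had 4 of 35 members downregulated (11.4%, beside 3.11% of all genes) and none up (median -0.02). The 4 were the muscle small heat shock proteins Hspb7, Hspb6 and Hspb2 and the cochaperone Dnajb5. Hspb7 was at 222, 152, 241 and 175 CPM in HPi-Lp and 540.5, 512, 330.0 and 718 CPM in HPi-Hp mice (-1.40 ± 0.25, adjusted p = 0.00991). Of 9 smooth muscle markers 7 were downregulated too, of which 5 (Cnn1, Lmod1, Smtn, Synpo2 and Tagln) were no longer called without HPi-Lp mouse 4, and their part was not tested. Without HPi-Lp mouse 4, 1 heat shock gene was called, and without HPi-Lp mouse 2 or HPi-Hp mouse 2, 2 were.

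Among glucocorticoid-responsive genes, 9 of 24 members were upregulated and 1 was downregulated (37.5% and 4.17%, beside 5.01% and 3.11% of all genes). The median log2 fold change was 0.58. Without single libraries 7 to 9 were upregulated, and 7 without both neuron-rich HPi-Lp mice. Fkbp5 (chr17:28399094-28517527), the chaperone that dampens the glucocorticoid receptor and one of its most responsive targets, was at 215, 166, 135 and 192 CPM in HPi-Lp and 41.6, 28.7, 37.7 and 25.1 CPM in HPi-Hp mice (2.42 ± 0.22, adjusted p = 0.00115). The lowest HPi-Lp mouse was over 3 times the highest HPi-Hp mouse. Tsc22d3, the leucine zipper protein GILZ, was at 168, 157, 134 and 163 CPM against 58.03, 65.8, 94.1 and 38.9 CPM (1.28 ± 0.25, adjusted p = 0.0135). Errfi1, a brake on EGF receptor signaling, was at 94.1, 95.6, 115 and 111 CPM against 20.2, 20.9, 33.3 and 49.1 CPM (1.76 ± 0.27, adjusted p = 0.00551). Neither overlapped between groups, and all 3 calls held without any 1 library.

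Sgk1, the serum and glucocorticoid regulated kinase, was at 135, 151, 184 and 159 CPM in HPi-Lp and 55.6, 102, 62.7 and 87.9 CPM in HPi-Hp mice (1.03 ± 0.22, adjusted p = 0.0162). It fell short of a call without HPi-Lp mouse 3 or 4 or HPi-Hp mouse 1 or 3 (0.90 to 1.19 over all fits without 1 library). Hsd11b1, which regenerates active glucocorticoid inside cells, was at 115, 105, 134 and 146 CPM against 61.4, 28.2, 64.7 and 20.7 CPM (1.52 ± 0.35, adjusted p = 0.022; not called without HPi-Lp mouse 3 or 4 or HPi-Hp mouse 2, adjusted p up to 0.0686). Lcn2, the siderophore-binding lipocalin that inflammation also raises, was at 11.8, 160.5, 142 and 102 CPM against 5.32, 0.817, 2.02 and 1.09 CPM (5.47 ± 0.84, adjusted p = 0.00551), with HPi-Lp mouse 1 well below the other 3. Other targets did not follow. Dusp1, the MAP kinase phosphatase, was downregulated, at 162, 205, 146 and 199.7 CPM against 316, 555, 223 and 366 CPM (-1.03 ± 0.27, adjusted p = 0.0367; not called without HPi-Lp mouse 1, 2, 3 or 4 or HPi-Hp mouse 1 or 2, adjusted p up to 0.0874). Klf9 (0.67 ± 0.27, adjusted p = 0.119), Zbtb16 (0.98 ± 0.43, 0.152), Per1 (-0.54 ± 0.38, 0.353) and the receptor gene Nr3c1 (-0.30 ± 0.16, 0.247) did not pass the test. In the Sham-HPi-Lp and 5/6 Nx-LPi-Lp mice, on the same protein content, Fkbp5 was at 53.96 ± 43.9 and 45.7 ± 13.9 CPM and Tsc22d3 at 62.5 ± 42.2 and 84.3 ± 56.1 CPM (SD, n = 4), beside HPi-Hp means of 33.3 ± 7.68 and 64.2 ± 22.9 CPM. The highest of those 8 mice reached 119 CPM of Fkbp5, below every HPi-Lp mouse, and 161 CPM of Tsc22d3, within the HPi-Lp range. For Hsd11b1 the 5/6 Nx-LPi-Lp mice, at 258, 109, 141 and 82.02 CPM, overlapped the HPi-Lp mice.

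**Figure D3:**
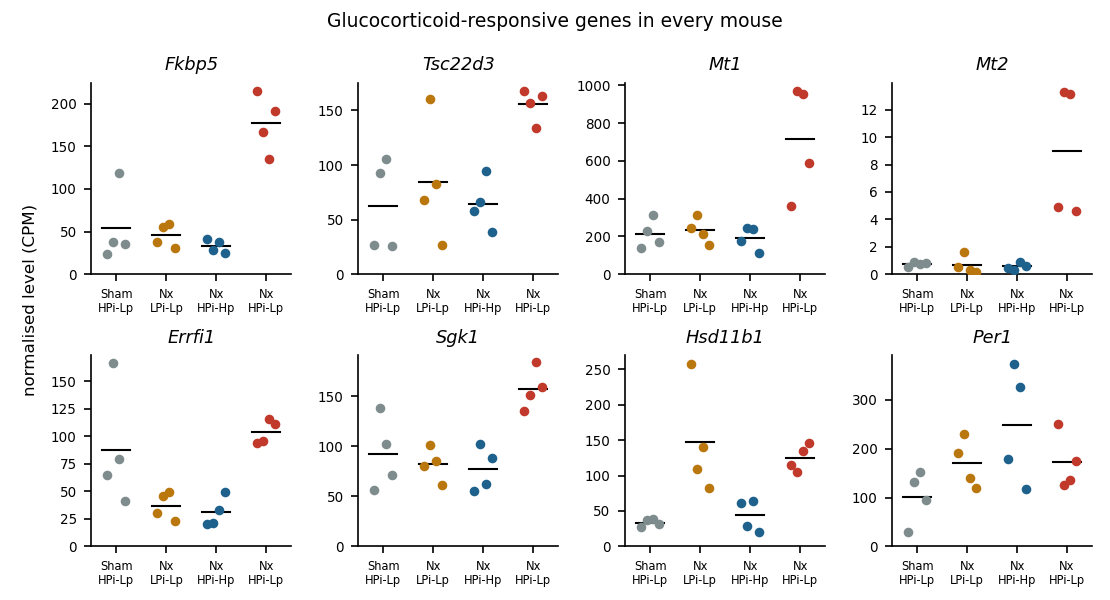
Each panel plots the CPM of 1 glucocorticoid-responsive gene on a linear axis from 0, with 1 point per mouse and a bar at the mean of 4 mice in the groups Sham-HPi-Lp, 5/6 Nx-LPi-Lp, 5/6 Nx-HPi-Hp and, on the right, 5/6 Nx-HPi-Lp. The 4 HPi-Lp mice lie above all 12 other mice for Fkbp5, Mt1 and Mt2, and overlap some of them for Tsc22d3, Errfi1, Sgk1, Hsd11b1 and Per1.

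Metallothioneins, small cysteine-rich proteins that store zinc and answer to both metals and glucocorticoids, rose as well. With the zinc transporters, 4 of 15 list members were upregulated (26.7%, beside 5.01% of all genes), none was downregulated and the median was 0.91. Mt1 was at 362, 969, 951 and 587 CPM in HPi-Lp and 176, 247, 239 and 111 CPM in HPi-Hp mice (1.89 ± 0.37, adjusted p = 0.0131). Mt2 was at 4.92, 13.3, 13.1 and 4.64 CPM against 0.484, 0.327, 0.8999 and 0.601 CPM (3.96 ± 0.52, adjusted p = 0.00374). HPi-Lp mice 2 and 3 were the highest for both, and no HPi-Hp mouse overlapped. The importer Slc39a14 (1.51 ± 0.43, adjusted p = 0.0473) and the exporter Slc30a4 (1.00 ± 0.26, 0.0361) were the other members called; the first was lost without HPi-Lp mouse 2, 3 or 4 or HPi-Hp mouse 1, 2 or 3 (adjusted p up to 0.136) and the second without HPi-Lp mouse 1, 2, 3 or 4 or HPi-Hp mouse 1, 2 or 3 (up to 0.0984). Both metallothionein calls held without any 1 library.

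Of 32 genes of cholesterol synthesis and uptake 9 were upregulated and 1 was downregulated (28.1% and 3.13%, beside 5.01% and 3.11% of all genes). The median was 0.65, and 22 were not called. Among synthetic enzymes, Cyp51, the lanosterol demethylase, was at 42.6, 34.4, 50.3 and 46.8 CPM in HPi-Lp and 11.9, 10.8, 19.1 and 21.9 CPM in HPi-Hp mice (1.46 ± 0.24, adjusted p = 0.00722). Hsd17b7, a sterol ketoreductase, was at 21.7, 8.41, 13.9 and 15.5 CPM against 3.39, 1.96, 1.4998 and 5.58 CPM (2.26 ± 0.44, adjusted p = 0.0128). All 4 HPi-Lp mice exceeded all HPi-Hp mice in both genes. Sqle, the squalene epoxidase, Mvd, a mevalonate decarboxylase, and the sterol carrier gene Stard4 were called too; Sqle was lost without HPi-Lp mouse 4 or HPi-Hp mouse 2 or 3 and Mvd without HPi-Lp mouse 4 or HPi-Hp mouse 1. By contrast, Insig1, a feedback sensor of the pathway, was at 65.4, 71.4, 73.9 and 60.95 CPM against 88.96, 70.9, 130.5 and 68.8 CPM (-0.40 ± 0.21, adjusted p = 0.233).

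Targets of the oxysterol receptor LXR were also among the called members. Abcg1, a cholesterol exporter, was at 13.2, 38.5, 25.3 and 28.1 CPM in HPi-Lp and 8.12, 4.001, 7.199 and 6.78 CPM in HPi-Hp mice (2.01 ± 0.33, adjusted p = 0.00648). Abca1, another exporter, was at 74.6, 135, 79.6 and 132 CPM against 56.4, 32.3, 60.9 and 30.1 CPM (1.23 ± 0.30, adjusted p = 0.0262; not called without HPi-Lp mouse 2 or 4 or HPi-Hp mouse 2, adjusted p up to 0.0812). Mylip, a ubiquitin ligase induced by LXR, also rose (1.08 ± 0.23, adjusted p = 0.0183; not called without HPi-Lp mouse 4 or HPi-Hp mouse 2 or 4). The member that fell was Tm7sf2, a sterol reductase, at 21.1, 10.1, 15.5 and 12.8 CPM against 21.9, 48.7, 37.3 and 29.3 CPM (-1.21 ± 0.30, adjusted p = 0.0288; not called without HPi-Lp mouse 2, 3 or 4 or HPi-Hp mouse 2 or 3, adjusted p up to 0.0906). With the neuron-rich HPi-Lp mice 1 and 4 left out, 4 cholesterol genes were upregulated and the median was 0.45; without HPi-Lp mouse 4 alone there were 5, and without HPi-Hp mouse 2 there were 6. HPi-Lp mice 1 and 4 held the highest Hsd17b7 of their group, and the part of neurons in these values was not tested.

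In de novo lipogenesis 1 of 28 members rose and 1 fell (3.57% each, near the shares of all genes, median -0.18). Scd2, a stearoyl-CoA desaturase, was at 314, 191, 167 and 249.9 CPM in HPi-Lp and 77.9, 57.8, 83.8 and 182 CPM in HPi-Hp mice (1.22 ± 0.35, adjusted p = 0.0465), with HPi-Hp mouse 4 within the HPi-Lp range. Acss2, which makes acetyl-CoA from acetate, was at 45.6, 39.7, 61.6 and 41.9 CPM against 129, 70.8, 204 and 79.2 CPM (-1.35 ± 0.33, adjusted p = 0.0264). Both calls hung on single libraries, Scd2 being lost without HPi-Lp mouse 1, 2, 3 or 4 or HPi-Hp mouse 1, 2 or 3 (adjusted p up to 0.124) and Acss2 without HPi-Lp mouse 2 or 4 or HPi-Hp mouse 1 or 3 (up to 0.0853). Of 11 adipocyte markers edgeR, DESeq2 and limma called none and none had an unadjusted p under 0.05; they summed to 7502 to 15171 CPM in HPi-Lp and 2553 to 16632 CPM in HPi-Hp mice.

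No nuclear gene of the respiratory chain was called by edgeR. In that fit 73 of 76 had a negative log2 fold change and the median was -0.41; 22 were lower at an unadjusted p under 0.05, and DESeq2 and limma called none. The median stayed between -0.60 and -0.22 when each library was left out, and 3 members were downregulated without HPi-Hp mouse 4. Per mouse, the mean log2(CPM + 1) of these genes was 6.58, 6.80, 7.12 and 6.98 in HPi-Lp and 7.601, 6.98, 7.74 and 6.61 in HPi-Hp mice. The groups thus overlapped, with HPi-Hp mice 1 and 3 high and HPi-Hp mouse 4 low. Summed brown adipocyte markers followed that order in HPi-Hp mice, at 2345, 1211, 2950 and 842 CPM. So did adipocyte markers, at 11556, 5928, 16632 and 2553 CPM. In HPi-Lp mice neither sum kept the order of the respiratory chain means. There brown adipocyte markers were at 682, 1257, 2231 and 1144 CPM and adipocyte markers at 8548, 7502, 7969 and 15171 CPM. The part of fat cells was not tested. The TCA cycle had a median of -0.40 (-0.16 without HPi-Hp mouse 3 and -0.61 without HPi-Hp mouse 4) with 26 of 28 members lower and Me3, the mitochondrial malic enzyme, downregulated (6.43, 7.73, 10.8 and 4.39 CPM against 19.7, 11.1, 19.3 and 12.3 CPM, -1.08 ± 0.31, adjusted p = 0.0473; not called without HPi-Lp mouse 1, 2 or 4 or HPi-Hp mouse 1, 2 or 3, adjusted p up to 0.114).

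Fatty acid oxidation had a median of -0.53 (-0.29 without HPi-Hp mouse 3), with 35 of 43 members lower, while its 2 called members rose. Acsl4, which loads arachidonic acid onto CoA, was at 35.996, 46.4, 47.4 and 39.99 CPM in HPi-Lp and 17.5, 9.39, 11.7 and 16.8 CPM in HPi-Hp mice (1.62 ± 0.21, adjusted p = 0.00368). Ucp2, a mitochondrial carrier, was at 128, 314, 198 and 202 CPM against 99.2, 68.4, 67.6 and 44.998 CPM (1.59 ± 0.30, adjusted p = 0.0122). Neither encodes an enzyme of beta-oxidation itself, and both were free of overlap. HPi-Hp mouse 4 weighed on this list: without it 8 members were downregulated, and without HPi-Lp mouse 1 there were 2. Glycolysis had 1 of 32 members upregulated (median -0.10), the glucose transporter Slc2a3, at 43.8, 9.49, 10.4 and 43.3 CPM against 4.25, 6.21, 3.15 and 8.09 CPM (2.30 ± 0.56, adjusted p = 0.0273). It was high in the neuron-rich HPi-Lp mice 1 and 4, without that pair its log2 fold change was 0.88 (adjusted p = 0.215), and it was also not called without HPi-Lp mouse 4 or HPi-Hp mouse 1, 2 or 3. Hypoxia targets had 1 call each way among 35 (2.86% each, below the shares of all genes, median 0.12). The lysyl oxidase Loxl2 rose, from 17.2, 9.06, 7.499 and 26.7 CPM to 49.4, 132, 47.4 and 105 CPM (2.48 ± 0.46, adjusted p = 0.0112). The scaffold gene Ppfia4 fell, at 7.69, 10.2, 7.38 and 8.19 CPM against 14.2, 33.6, 14.5 and 18.2 CPM (-1.26 ± 0.30, adjusted p = 0.0254). It was not called without HPi-Lp mouse 3 or 4 or HPi-Hp mouse 2.

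**Figure D4:**
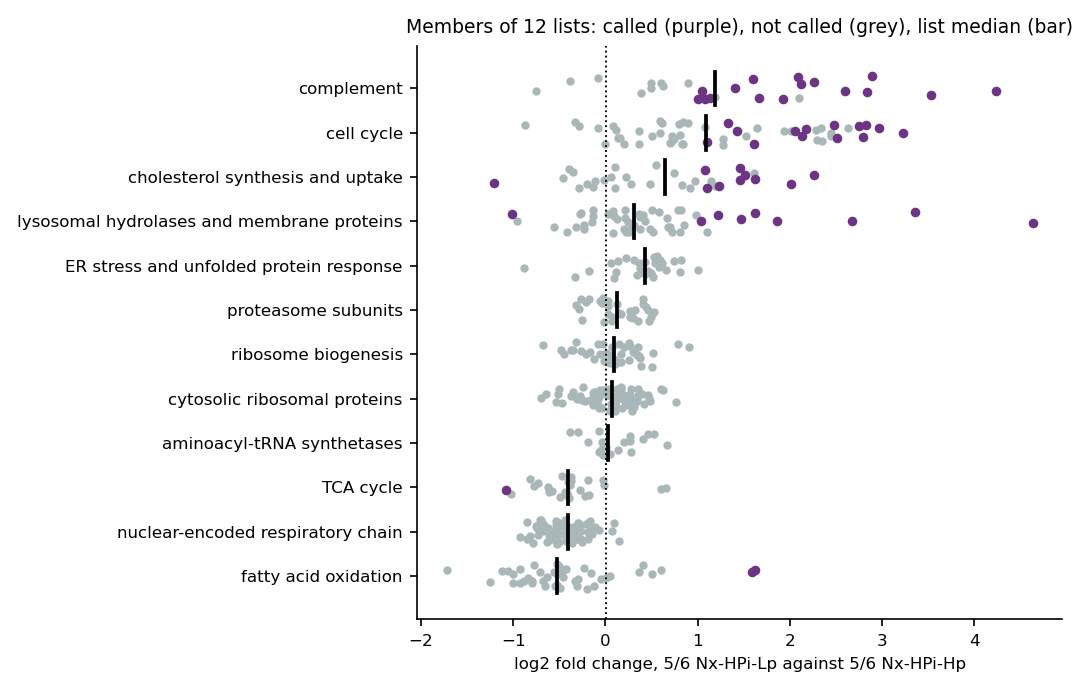
Points are the log2 fold changes of single genes in 5/6 Nx-HPi-Lp against 5/6 Nx-HPi-Hp mice for 12 lists, purple where called and grey where not, with a bar at each list's median and a dotted line at the median of all genes (0.01). Complement and cell cycle medians lie above 1, those of ribosomal proteins, synthetases and proteasome subunits near 0, and those of the TCA cycle, respiratory chain and fatty acid oxidation between -0.53 and -0.40.

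Of 22 clock genes 4 were downregulated (18.2%, beside 3.11% of all genes) and none was upregulated by edgeR (median -0.57). At an unadjusted p under 0.05, 10 were lower and 1 was higher. DESeq2 called 8 lower and 1 higher, and limma called 2 lower. Dbp, the PAR-domain factor driven by the CLOCK and BMAL1 dimer, was at 138, 79.3, 13.6 and 109 CPM in HPi-Lp and 582, 575, 573 and 188 CPM in HPi-Hp mice (-2.49 ± 0.62, adjusted p = 0.0293). Nr1d1, for the repressor REV-ERB alpha, was at 123, 68.997, 19.2 and 124 CPM against 333, 253, 237 and 299 CPM (-1.73 ± 0.47, adjusted p = 0.0386). Ciart, a repressor of the same dimer, was at 18.3, 4.64, 4.37 and 6.77 CPM against 54.6, 66.1, 89.8 and 7.55 CPM (-2.70 ± 0.70, adjusted p = 0.0348), and Bhlhe41, a further repressor, at 20.2, 24.4, 11.3 and 19.1 CPM against 57.3, 51.2, 41.996 and 22.1 CPM (-1.20 ± 0.32, adjusted p = 0.0366). Dbp and Nr1d1 did not overlap between groups. HPi-Hp mouse 4 was the lowest of its group for Dbp, Ciart and Bhlhe41.

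Arntl and Npas2 normally peak when Dbp is low. Arntl, for BMAL1, was at 5.7997, 6.06, 17.1 and 6.84 CPM in HPi-Lp and 1.51, 1.55, 0.8999 and 12.4 CPM in HPi-Hp mice (1.15 ± 0.78, adjusted p = 0.34), and Npas2, a partner of BMAL1, at 2.396, 4.05, 9.67 and 3.87 CPM against 1.51, 0.408, 1.1999 and 28.8 CPM (-0.65 ± 1.07, adjusted p = 0.715). HPi-Hp mouse 4 thus held many times the Npas2 of its 3 group mates, and HPi-Lp mouse 3 the most Arntl and the least Dbp of its own group. Each of the 4 calls was lost when some single libraries were left out: Dbp without HPi-Lp mouse 2 or 4 or HPi-Hp mouse 1, 2 or 3 (adjusted p up to 0.0749), Nr1d1 without HPi-Lp mouse 2 or 4 or HPi-Hp mouse 1, 2, 3 or 4 (up to 0.0892), Ciart without HPi-Lp mouse 2, 3 or 4 or HPi-Hp mouse 1, 2 or 3 (up to 0.102) and Bhlhe41 without HPi-Lp mouse 1, 3 or 4 or HPi-Hp mouse 1, 2 or 3 (up to 0.0967). Downregulated clock genes numbered 7 without HPi-Hp mouse 4, with 3 upregulated, and 6 without HPi-Lp mouse 1. They numbered 0 without HPi-Lp mouse 4 or any 1 of HPi-Hp mice 1, 2 and 3, and 1 or 2 without HPi-Lp mouse 2 or 3. Sham-HPi-Lp mice spanned a wide range for Dbp, 26.97, 54.1, 179 and 309.6 CPM, and 5/6 Nx-LPi-Lp mice likewise, 299.9, 193, 95.2 and 551 CPM. The hour at which each aorta was collected is not given in the sources used here, so hour of collection and diet cannot be told apart for these genes.

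**Figure D5:**
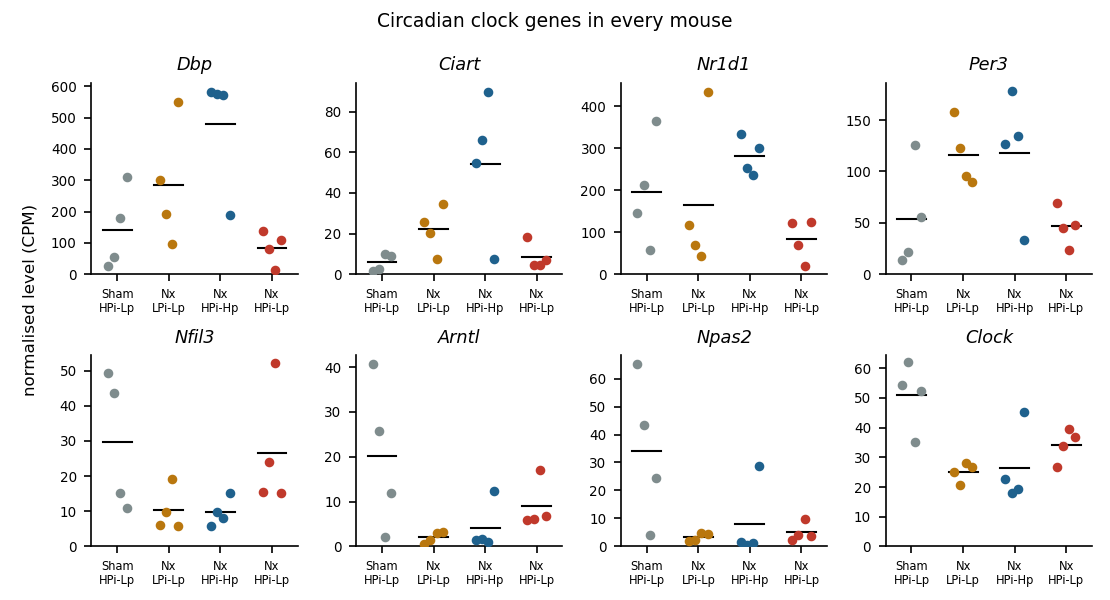
Each panel plots the CPM of 1 clock gene on a linear axis from 0, with 1 point per mouse and a bar at the mean of 4 mice in the groups Sham-HPi-Lp, 5/6 Nx-LPi-Lp, 5/6 Nx-HPi-Hp and, on the right, 5/6 Nx-HPi-Lp. HPi-Hp mouse 4 lies apart from the other 3 HPi-Hp mice, low for Dbp, Ciart and Per3 and high for Arntl, Npas2 and Clock.

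CLOCK and BMAL1 bind the E-box CACGTG, which occurred in 6.02% of the 32851 windows and in 5 of the 18 found for clock list members. The windows of Ciart and Bhlhe41 are shown as the downregulated members that hold it, in capitals.
Ciart (chr3:95882229-95882478, minus strand): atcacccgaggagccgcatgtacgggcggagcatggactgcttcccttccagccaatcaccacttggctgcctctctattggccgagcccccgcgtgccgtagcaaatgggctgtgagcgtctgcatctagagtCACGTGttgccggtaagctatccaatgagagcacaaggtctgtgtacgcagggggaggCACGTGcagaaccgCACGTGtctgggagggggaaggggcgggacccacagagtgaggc
Bhlhe41 (chr6:145865421-145865670, minus strand): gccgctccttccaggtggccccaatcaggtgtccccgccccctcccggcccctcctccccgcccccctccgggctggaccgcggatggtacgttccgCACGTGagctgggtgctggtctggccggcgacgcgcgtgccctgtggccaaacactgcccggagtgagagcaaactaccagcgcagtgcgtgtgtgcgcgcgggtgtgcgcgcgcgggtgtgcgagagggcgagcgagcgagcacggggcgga
Ciart holds 3 matches, a number reached by 0.0609% of windows, and Bhlhe41 holds 1.

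Of 54 cell cycle genes 14 were upregulated (25.9%, beside 5.01% of all genes) and none was downregulated. Of the 54, 49 were higher and the median was 1.09 (0.70 without HPi-Lp mouse 2). Mcm4, a subunit of the replicative helicase, was at 14.9, 18.9, 15.02 and 13.9 CPM in HPi-Lp and 8.12, 5.14, 3.67 and 6.45 CPM in HPi-Hp mice (1.43 ± 0.26, adjusted p = 0.00991). Bub1, a kinase of the mitotic checkpoint, was at 1.45, 3.98, 2.296 and 2.39 CPM against 0.161, 0.408, 0.29997 and 0.219 CPM (3.23 ± 0.57, adjusted p = 0.00893). Kif11, a motor of the mitotic spindle, was at 2.14, 9.39, 6.29 and 4.64 CPM against 0.699, 0.327, 1.12 and 1.09 CPM (2.79 ± 0.55, adjusted p = 0.0136). The groups did not overlap in these genes, and HPi-Lp mouse 2 was the highest in each. Mki67, the proliferation antigen, was at 6.998, 39.2, 19.4 and 17.9 CPM against 7.53, 3.27, 3.37 and 4.43 CPM (2.17 ± 0.48, adjusted p = 0.0199; not called without HPi-Hp mouse 2 or 3, adjusted p up to 0.0672), and HPi-Lp mouse 1 lay within the HPi-Hp range. Not all called members promote division: Cdkn1a, for the inhibitor p21, was at 61.7, 93.5, 162 and 96.2 CPM against 37.5, 29.6, 23.4 and 46.1 CPM (1.61 ± 0.30, adjusted p = 0.0108). The number upregulated was 20 without HPi-Lp mouse 1, 6 to 9 without any 1 of HPi-Lp mice 2, 3 and 4 and HPi-Hp mice 2 and 3, and 21 without HPi-Lp mice 1 and 4 together, and limma on log2(FPKM + 1) called 3.

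Complement had the largest share of called members of the 37 lists, 16 of 27 up (59.3%, beside 5.01% of all genes), none down and a median of 1.18. C4b, of the classical pathway, was at 748, 1149.6, 797 and 1196 CPM in HPi-Lp and 281, 185, 224 and 123 CPM in HPi-Hp mice (2.26 ± 0.29, adjusted p = 0.00368). C6, of the membrane attack complex, was at 4.41, 13.2, 12.7 and 11.2 CPM against 1.02, 0.48998, 0.44995 and 0.219 CPM (4.23 ± 0.54, adjusted p = 0.00346). The integrin chain of complement receptor 3, Itgam, was at 8.95, 40.2, 23.1 and 19.9 CPM against 4.09, 3.51, 2.25 and 2.68 CPM (2.89 ± 0.42, adjusted p = 0.00497). C3, the central component, was at 933, 1812, 1348 and 1485 CPM against 739, 327, 457 and 237 CPM (1.67 ± 0.36, adjusted p = 0.0182; not called without HPi-Lp mouse 4 or HPi-Hp mouse 2, adjusted p up to 0.0629). Itgam, Itgb2, Itgax, C1qa and Vsig4 are genes of macrophages and other myeloid cells, and all 8 macrophage markers and all 3 neutrophil markers tested were upregulated too. All 7 neutrophil markers, tested or not, summed to 12.2 to 29.2 CPM against 0.711 to 4.46 CPM. Without HPi-Hp mouse 2, 5 of the 8 macrophage calls ended (Adgre1, C1qa, Cd68, Csf1r and Fcgr1) and 2 of the 3 neutrophil calls (S100a9 and Retnlg), and the same macrophage calls ended without HPi-Lp mouse 2, 3 or 4 or HPi-Hp mouse 3; limma called 4 macrophage markers. The part of these cells was not tested. Fibroblast markers had 5 of 8 up and summed to 4144 to 13311 CPM in HPi-Lp and 2564 to 4647 CPM in HPi-Hp mice; without HPi-Lp mouse 2 or 4 or HPi-Hp mouse 2 or 3, 3 of these 5 calls ended (Col1a1, Dpt and Pdgfra). The number of complement genes upregulated was 6 without HPi-Hp mouse 2, 8 without HPi-Hp mouse 3 or HPi-Lp mouse 4, 9 and 10 without HPi-Lp mouse 2 and 3, and 15 without HPi-Lp mice 1 and 4 together.

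Lysosomal genes were called in 8 of 55 cases upward and 1 downward (14.5% and 1.82%, beside 5.01% and 3.11% of all genes, median 0.31). Ctss, the cathepsin that trims the invariant chain for antigen presentation, was at 48.4, 226, 135 and 102 CPM in HPi-Lp and 17.9, 14.7, 8.25 and 9.19 CPM in HPi-Hp mice (3.36 ± 0.46, adjusted p = 0.00402). Ctsk, a collagen-degrading cathepsin, was at 53.7, 204, 75.03 and 95.5 CPM against 20.8, 18.2, 11.7 and 16.5 CPM (2.68 ± 0.39, adjusted p = 0.00497). Atp6v0d2, a proton pump subunit known from osteoclasts and macrophages, was at 3.78, 8.74, 4.09 and 6.97 CPM against 0.215, 0, 0.375 and 0.328 CPM (4.63 ± 0.67, adjusted p = 0.00488). The groups did not overlap in these 3 genes, and mouse 2 was the highest HPi-Lp mouse in each. Mouse 2 also had the highest summed macrophage, fibroblast and osteoclast markers of its group, whose part was not tested. Idua, the iduronidase, fell to 38.9, 30.2, 28.6 and 26.3 CPM from 53.7, 73.3, 57.1 and 66.3 CPM (-1.01 ± 0.18, adjusted p = 0.00856). It was just short of the fold threshold without HPi-Lp mouse 2, 3 or 4 or HPi-Hp mouse 2 or 4. Over all fits without 1 library its log2 fold change was -1.14 to -0.94. MHC class II presentation had 2 of 16 members up (12.5%), Ctss and the legumain gene Lgmn. Its median was 0.45, or 0.07 without HPi-Lp mouse 2, and none of its class II chains was called. Interferon-stimulated genes had none up and 1 of 47 down (median 0.02), Gbp4, a guanylate-binding protein (11.5, 9.48, 9.85 and 17.8 CPM against 53.03, 22.1, 48.7 and 18.1 CPM, -1.55 ± 0.37, adjusted p = 0.0262; not called without HPi-Lp mouse 2 or 3 or HPi-Hp mouse 1 or 3).

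NRF2 and glutathione genes went both ways, 3 up and 2 down of 42 (7.14% and 4.76%, near the shares of all genes; median 0.05). Without HPi-Lp mouse 2, 1 was up, and without HPi-Hp mouse 1 or 2, 1 was down. Hmox1, the heme oxygenase, was at 39.02, 155, 222 and 55.9 CPM in HPi-Lp and 13.7, 12.1, 14.7 and 7.71 CPM in HPi-Hp mice (3.30 ± 0.53, adjusted p = 0.00617). Gstm1, a glutathione transferase with close copies, was at 237, 90.1, 149 and 160.3 CPM against 513, 400.3, 348 and 525 CPM (-1.48 ± 0.28, adjusted p = 0.0126). The groups did not overlap in either gene.

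In the IGF and growth hormone list 4 of 23 members rose (17.4%, beside 5.01% of all genes) and none fell (median 0.39). Pappa, the protease that frees IGF from its binding proteins, was at 7.25, 14.6, 7.53 and 7.87 CPM in HPi-Lp and 1.99, 0.48998, 0.975 and 1.09 CPM in HPi-Hp mice (3.02 ± 0.45, adjusted p = 0.00497). Igfbp3, an IGF binding protein, was at 79.6, 77.02, 41.1 and 115 CPM against 28.8, 14.7, 30.3 and 13.3 CPM (1.85 ± 0.36, adjusted p = 0.0133). Igf1 was at 92.04, 218, 125 and 166 CPM against 66.4, 44.8, 78.4 and 47.7 CPM (1.35 ± 0.28, adjusted p = 0.0167), without overlap but not called without HPi-Lp mouse 4 or HPi-Hp mouse 2 (adjusted p up to 0.06). Imprinted growth genes had 5 of 21 up (23.8%) and none down. Their median was 0.42, or 0.25 without HPi-Hp mouse 3 and 0.71 without HPi-Hp mouse 4. They were led by Grb10, an adaptor that restrains insulin and IGF receptors, at 65.9, 125, 80.9 and 77.6 CPM against 33.7, 33.5, 40.05 and 34.3 CPM (1.31 ± 0.20, adjusted p = 0.00556). Mest, H19, Dcn and Gatm were the other 4. Without HPi-Hp mouse 2 or 3, 2 imprinted genes were called, and without HPi-Lp mouse 4, 2 genes of the IGF list were.

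Among genes for phosphate transport and inhibition of mineral, 4 of 22 rose (18.2%, beside 5.01% of all genes) and none fell (median 0.06). Beside Spp1 these were Nt5e, Enpp3 and Tnfsf11. Nt5e, the ectonucleotidase that makes adenosine, was at 12.9, 19.6, 12.7 and 24.4 CPM in HPi-Lp and 5.11, 3.84, 6.67 and 6.12 CPM in HPi-Hp mice (1.68 ± 0.28, adjusted p = 0.00755). Tnfsf11, for the osteoclast factor RANKL, was at 1.51, 15.7, 8.83 and 1.55 CPM against 0.0538, 0, 0 and 0 CPM. The 1348 counts in HPi-Lp and 1 count in HPi-Hp libraries gave a ratio of 629 with an exact 95% interval of 113 to 24844, which covers counting error only. Of 6 osteoclast markers, 3 were tested and 1, Ctsk, was called.

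Vasoactive signaling was called 6 up and 4 down of 46 (median -0.06). Tbxa2r, the thromboxane receptor of smooth muscle, was at 15.3, 18.6, 14.2 and 9.93 CPM in HPi-Lp and 61.3, 63.5, 46.7 and 84.6 CPM in HPi-Hp mice (-2.13 ± 0.23, adjusted p = 0.00206). Ramp1, which pairs with the receptor for the dilator CGRP, was at 44.1, 20.02, 39.2 and 23.7 CPM against 119.5, 107, 73.8 and 254 CPM (-2.11 ± 0.39, adjusted p = 0.011). Upregulated were Bdkrb1, the inducible bradykinin receptor, at 5.36, 9.63, 8.79 and 3.16 CPM against 1.13, 1.14, 0.8999 and 0.984 CPM (2.70 ± 0.42, adjusted p = 0.00551), and Ptgs2, the inducible cyclooxygenase, at 31.5, 45.9, 84.7 and 33.7 CPM against 7.31, 13.3, 2.85 and 7.71 CPM (2.65 ± 0.46, adjusted p = 0.00822). The endothelin receptor gene Ednra rose as well, from 15.5, 6.37, 10.3 and 9.68 CPM to 25.7, 44.7, 24.9 and 21.7 CPM (1.49 ± 0.30, adjusted p = 0.0149). None of these 5 genes overlapped between groups. Without HPi-Hp mouse 2, 3 genes of the list rose and 2 fell.

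Ion channels of vascular smooth muscle had 2 genes up and 2 down of 48 (4.17% each, near the shares of all genes, median -0.09). Slc12a2, the sodium, potassium and chloride cotransporter, was at 41.5, 41.6, 43.6 and 42.3 CPM in HPi-Lp and 24.3, 16.4, 22.3 and 17.3 CPM in HPi-Hp mice (1.08 ± 0.16, adjusted p = 0.00497). It was the most uniform of the named genes within HPi-Lp mice, and without HPi-Hp mouse 2 its log2 fold change was 0.98. Ano1, a calcium-activated chloride channel, was at 73.8, 60.1, 95.4 and 47.8 CPM against 125, 188, 139 and 195 CPM (-1.22 ± 0.24, adjusted p = 0.0137). It moved in the direction of the smooth muscle markers, whose part was not tested, while of 9 endothelial markers edgeR, DESeq2 and limma called none (2 higher at an unadjusted p under 0.05).

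In TGF-beta and BMP signaling 3 of 49 members rose and 2 fell (6.12% and 4.08%, near the shares of all genes, median -0.08). Fst, for the activin and BMP trap follistatin, was at 27.99, 21.3, 17.8 and 23.7 CPM in HPi-Lp and 10.5, 5.31, 8.77 and 10.6 CPM in HPi-Hp mice (1.38 ± 0.24, adjusted p = 0.00906). Bmp4 itself was at 33.98, 33.6, 28.9 and 42.2 CPM against 99.4, 82.1, 71.2 and 71.3 CPM (-1.22 ± 0.17, adjusted p = 0.00469). In Wnt signaling 5 of 45 rose and 3 fell (11.1% and 6.67%, beside 5.01% and 3.11% of all genes, median 0.14). Dkk2, a secreted Wnt modulator, was at 9.96, 8.15, 7.99 and 14.2 CPM against 4.09, 3.59, 4.4995 and 3.55 CPM (1.36 ± 0.27, adjusted p = 0.0144), and Lgr6, an R-spondin receptor, at 84.1, 45.96, 109 and 55.1 CPM against 186, 242, 137 and 388 CPM (-1.69 ± 0.36, adjusted p = 0.0169). Without HPi-Lp mouse 4 no Wnt gene was called in either direction. Dkk2 and Lgr6 were free of overlap and were lost without HPi-Lp mouse 4 (adjusted p = 0.0533 and 0.0599). Notch signaling had none of 24 up and 2 down (8.33%, median 0.06). Of these 2, Heyl, a Notch target of smooth muscle, was at 47.4, 35.9, 38.97 and 31.99 CPM against 178, 96.8, 95.5 and 251 CPM (-1.99 ± 0.31, adjusted p = 0.00551).

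Markers of other cell types and organs moved as follows, beside 5.01% of all genes up and 3.11% down. Sympathetic neuron markers had 2 of 12 up, Stmn2 and Phox2a, with all 12 higher; both calls ended without HPi-Lp mouse 1 or 4 or HPi-Hp mouse 1, 2 or 3, and limma called none. Of 6 mast cell, 8 Schwann cell and 5 erythroid markers edgeR called none; 1 Schwann cell marker was higher at an unadjusted p under 0.05 and was called by DESeq2, and limma called none. T cell markers had 1 of 7 down, Lck, which was lost without HPi-Lp mouse 2, 3 or 4 or HPi-Hp mouse 1, 2, 3 or 4. Brown adipocyte markers had 1 of 8 up, Dio2, while 6 of the 8 were lower (median log2 fold change -0.40). The Dio2 call was lost without HPi-Lp mouse 3 or HPi-Hp mouse 1 or 2. Chondrocyte markers had 1 of 6 up. Of organs that could be carried along, pancreas had 2 of 4 tested markers up, lung 1 of 2 and kidney tubule 1 of 2. The other tested kidney tubule marker was lower and not called (log2 fold change -0.82). Summed over all markers of a list, tested or not, pancreas was at 14.2 to 153 CPM in HPi-Lp against 4.05 to 10.9 CPM in HPi-Hp mice. In the same way lung was at 13.5 to 76.6 against 5.16 to 10.8 CPM and kidney tubule at 9.21 to 27.5 against 1.57 to 7.48 CPM. Skeletal muscle had 1 of 5 down, and the 1 osteoblast marker tested was not called by edgeR, DESeq2 or limma (lower at an unadjusted p under 0.05). Of the 7 kidney tubule markers, Aqp2, the one called, had reads in all 8 libraries, as had Lrp2. Slc12a1 had reads in all 4 HPi-Lp and in no HPi-Hp library, with at most 19 counts, Cdh16 and Slc12a3 were at 0 in some libraries of each group, and Umod and Slc34a1 were at 0 in all 8. The part of kidney tissue was not tested.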

How the data were processed

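Poly(A) RNA of whole aorta was sequenced, with 1 library for each mouse. Cleaned reads were aligned by the authors with HISAT2 (mm10) and assigned to genes with featureCounts 1.5.0-p3; they deposited whole-number counts, unnormalized, and FPKM derived from them with a further scaling between libraries. Options for strand and for reads that match several genes are not given in the sources used here, which limits genes with close copies (Saa3, Igha, Gstm1, Mt2, Gbp4, Scd2). No column of per-sample values was left unused in the count table.

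Groups came from the sample titles. In R 4.3.3, counts of the 8 libraries were filtered by filterByExpr, scaled by TMM and tested with edgeR 4.0.16 (glmQLFit, glmQLFTest) with Benjamini-Hochberg adjustment over 16198 genes; a call needed both an adjusted p no higher than 0.05 and a change of 1 or more on the log2 scale in either direction. Levels are CPM after TMM over all 16 libraries. Promoter windows came from RefSeq on GRCm38.p6. On simulated data of this comparison (16198 genes, 100 changed 2-fold and 100 changed 4-fold), 24 and 67 were called, all in the right direction, with 2 false calls. Alternatives were limma 3.58.1 on log2(FPKM + 1) or log2(FPKM + 0.1) of genes with a mean FPKM above 0.5, DESeq2 1.42.0, and those named in the closing section. No 2 libraries of a group were copies (chi-square per gene at least 41.0). Each library was labelled as a separate mouse, and p-values measure the spread between these samples.

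The comparison and the 37 pathway and 21 marker lists were chosen with earlier results of these data known, so lists are described by counts and medians without a test. Some genes, such as Slc7a11, Ddit4 and Ctss, stand in more than 1 list, so the lists are not independent of each other. Named genes were the 4 of each direction with the largest fold change and the 4 with the smallest p (called, at least 10 CPM in 1 group, no overlap), and in each pathway list the called member of each direction with the smallest p; other members were chosen after their values were seen, and some members are not reported here. With 4 mice per group and the totals given, differences of 2-fold were often missed, so an uncalled gene is not shown to be unchanged.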

Additional observations from a re-analysis of the deposited data

Results flagged for a closer look

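In 8 of 114 groups of 4 mice tested (57 named genes in 2 groups), 1 mouse lay apart from the other 3 by Dixon's test; chance gives about 1 in 20. Igha was at 254 CPM in HPi-Lp mouse 1, against 9.12 to 50.3 CPM in the other 3. Pappa was at 14.6 CPM in HPi-Lp mouse 2, against 7.25 to 7.87 CPM. Amt was at 32.1 CPM in HPi-Hp mouse 2, against 20.5 to 21.1 CPM. Slc38a3 was at 2.32 CPM in HPi-Lp mouse 4, against 0.946 to 1.17 CPM, and at 4.26 CPM in HPi-Hp mouse 4, against 8.34 to 8.62 CPM. Dbp was at 188 CPM in HPi-Hp mouse 4, against 573 to 582 CPM. Grb10 was at 40.05 CPM in HPi-Hp mouse 3, against 33.5 to 34.3 CPM, and Gm48529 at 36.1 CPM in the same mouse, against 31.3 to 31.8 CPM. HPi-Hp mouse 4 accounts for 2 of the 8, and it was also the mouse with the lowest mitochondrial share.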

How the results depend on the processing

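None of the 57 named genes changed direction under the alternatives that tested it, which held 47 of them with at least 10 counts in every library, 55 with limma and all 57 otherwise. They had been chosen as called in these same libraries, so a kept direction was nearly fixed in advance. Limma on log2(FPKM + 1) lost 14 of 55 of their calls. Leaving out HPi-Lp mouse 4 lost 15 of 57, and leaving out HPi-Lp mouse 2 or HPi-Hp mouse 2 lost 12 each. Upregulated and downregulated genes numbered 1266 and 829 with DESeq2, 1237 and 774 with all 16 libraries in one fit, and 255 and 116 with the replicate number as a block. Limma on log2(FPKM + 1) called 431 up, and without the fold threshold 964 were lower. Leaving out 1 library at a time gave 418 to 932 up and 216 to 626 down. The same replicate number did not pair mice: deviations of same-numbered mice correlated at -0.29, -0.17, 0.005 and -0.016, and the block kept 36 of 57 named calls. Relative log expression scaling gave 781 and 526, total-count scaling 794 and 407, no count filter 956 and 597, at least 10 counts in every library 703 and 510, thinning to the lowest total 814 and 512, mitochondrial genes left out 841 and 470, a neuron marker covariate 973 and 746 and an adipocyte marker covariate 886 and 512. A further pair of alternatives was chosen after seeing the data: a mitochondrial share covariate gave 1056 and 638, and leaving out HPi-Lp mice 1 and 4, richest in neuron markers, gave 693 and 340, with 16 named calls lost. Genes called both here and under an alternative had the same sign in each, which the shared libraries made likely beforehand. Depth limits genes with few counts in HPi-Hp libraries, such as Tnfsf11 (1 count) and Slc7a11 (16 counts).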
